A study of Mus musculus with 45 samples.

Results

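The transcriptome of the banded mouse heart was set against that of the sham-operated heart. Members of the comparison were the genes with at least 5 FPKM in either library, which were 5108 of the 23284 genes listed. FPKM is the number of fragments per kilobase of transcript, scaled to the mapped reads of the library. Every level below is log2(FPKM + 1), and every difference is banding minus sham on that scale, so that a difference of 1 is about a 2-fold change and somewhat more for low genes. The filter takes a gene in through the library where it is higher, so genes near the limit that passed through 1 library had to differ. Close inside the limit lay D14Abb1e and Efnb1, whose higher values were 5.00161 and 5.00264 FPKM. Just outside lay Rfng, Thoc3 and Mcts2, at 4.99998, 4.99982 and 4.99526 FPKM.

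The study profiled binding of the heart transcription factor Gata4, histone marks and gene expression in embryonic (E12.5), adult, banded and sham mouse hearts, and 6 of its 45 samples are expression libraries. The banding library and the sham library are each labelled as primary heart tissue, with banding or sham as the stress, and each group is 1 library. The comparison asks what the loaded heart expresses more or less of than a heart that had an operation alone. A pair of libraries labelled as adult heart served as the yardstick for how far 2 libraries of 1 group lie apart. The labels do not give strain, sex, age, the vessel that was banded or the time since the operation, and they call the RNA pooled without saying how many hearts entered a pool. Their protocol lists the alleles Gata4fbio (a tagged Gata4), Rosa26BirA (a biotin ligase), cTNTcre (Cre driven in heart muscle) and Gata4flox for the whole study and does not say which of them the expression libraries carried. Whether the adult pair came from different animals is not stated, so their difference may be technical only.

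Narrowing a great vessel makes the ventricle pump against a higher pressure. Heart muscle under such load is known to thicken, to release natriuretic peptides, to add proteins at the Z-disc where the sarcomere senses stretch, and to shift from fatty acids towards other fuels. Fibroblasts between the muscle cells are known to lay down collagen, and the ion channels that end each beat are known to decline.

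The banding library held 14015985 mapped reads and the sham library 12086929, against 12619710 and 12357585 in the adult libraries. Reads on listed genes made up 58.0% and 55.6% in banding and sham but 83.6% and 83.9% in the adult libraries, and the ribosomal RNA precursor Rn45s stood at 12.96 and 12.94 against 8.65 and 8.94. Banding and sham were thus alike in these measures, while both stood apart from the adult pair. Adult levels are given as deposited beside each gene, a comparison after rescaling follows the gene groups, and the part of library make-up in the distance from adult was not tested. Gata4 itself stood at 2.38 in banding and 2.29 in sham (3.78 and 3.28 in adult 1 and adult 2), under the 5 FPKM limit, and Gata6 at 2.09 and 2.27 (3.43 and 3.41).

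Of the members, 128 were at least 2-fold higher in banding and 51 at least 2-fold lower, which is 2.51% and 0.998% of those measured, or 3.50% in all. By this rule 31 of 6460 genes differed within the adult pair (0.480%), with 15 higher (0.232%) and 16 lower (0.248%) in adult 1. With 1 library a side there is no replicate check and no test, and the text gives sizes only. The central 95% of differences ran from -0.73 to 1.00 in banding against sham (SD over genes 0.43) and from -0.47 to 0.38 between the adult libraries (SD 0.24). The wider spread held at every level of expression. Members were cut into 5 equal classes of mean level. In the lowest class the central 95% spanned 2.10, against 1.09 in the adult pair, and in the highest it spanned 1.79, against 0.70. In that highest class 3.91% of members passed 2-fold, against 0.232% in the adult pair.

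**Figure D1:**
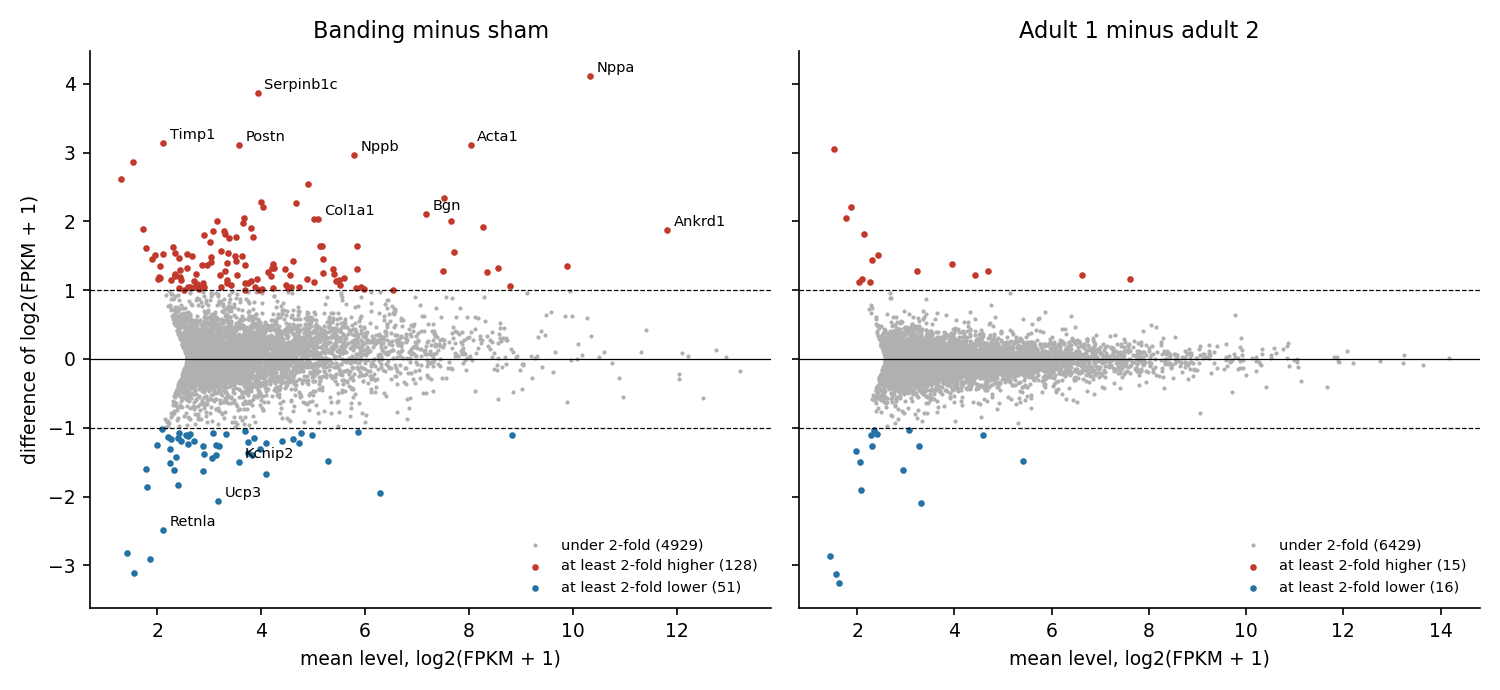
Each point is 1 gene with at least 5 FPKM in either library; the horizontal axis is its mean level and the vertical axis its difference, both in log2(FPKM + 1), for banding minus sham (left) and adult 1 minus adult 2 (right). Dashed lines mark a difference of 1. With members in 5 equal classes of mean level, 35 of the 128 higher genes on the left lie in the highest class and 34 in the lowest. Of the 51 lower genes 5 lie in the highest class and 23 in the lowest. Most of the 31 on the right lie at low levels.

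The balance of the calls leaned upward. The median difference over all members was 0.06, with 2946 higher and 2162 lower at all, and 71.5% of the calls were higher in banding. Dividing by the summed FPKM without the 50 most abundant genes moved the median of all members by -0.14 and gave 95 higher and 82 lower (53.7% higher), so the split depends on scaling. Of the 128 higher calls, 33 ended under 2-fold in at least 1 of 3 other scalings and 21 in all 3, whereas no lower call did. The same scaling without the 50 genes moved the median of each of the 44 lists with at least 5 members by between -0.12 and -0.15, which is much of a small median. A difference of at least 2 was seen for 19 higher and 5 lower genes, against 7 genes in the adult pair. Of the 179 calls, 12 were at small RNA loci, which hold few reads in poly(A) libraries, against 14 of the 31 adult calls. Without these loci, 167 genes differed between banding and sham and 17 between the adult libraries. Genes called in both pairs numbered 7, which is 3.91% of the banding calls and 22.6% of the adult calls. Only 14 of the 31 adult calls were members of the banding comparison and could be shared. Of those 14, 7 were called there, against 3.50% of all members. The 7 shared genes were Acta1, Nppb, the Kelch family gene Klhl34, the cytokine receptor Tnfrsf12a, Mid1 and the small RNA loci Snora75 and Mir3100.

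The 128 higher genes took 7.10% of the reads on listed genes in banding, against 2.06% in sham and 2.35% and 1.96% in the adult libraries. Much of this lay in 2 genes. Ankrd1 alone took 2.10% of listed reads in banding and 0.598% in sham, and Nppa 0.768% and 0.0462%. The other 126 genes together took 4.23% and 1.41%. The 51 lower genes took 0.158% in banding and 0.427% in sham.

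For 5 heart muscle genes with large differences, chosen after their values were seen, the 250 bases before the start are shown here, because such windows hold the short motifs known to drive heart muscle genes. Sequences and positions are from RefSeq on GRCm38.p6 (the deposited files name mm9 and give no coordinates). The windows are chr4:148000472-148000721 on the plus strand for Nppa, chr4:147985650-147985899 plus for Nppb, chr8:123894776-123895025 minus for Acta1, chr19:36119845-36120094 minus for Ankrd1 and chr2:67445752-67446001 plus for Xirp2, each written 5′ to 3′ towards the gene. Capitals mark matches, on either strand, to the GATA motif (TGATAA, with A or T as its first base and A or G as its last), the MCAT motif bound by TEAD factors (CATTCC), the CArG box bound by serum response factor, and the AP-1 motif (TGACTCA, with C or G in its middle).
Nppa: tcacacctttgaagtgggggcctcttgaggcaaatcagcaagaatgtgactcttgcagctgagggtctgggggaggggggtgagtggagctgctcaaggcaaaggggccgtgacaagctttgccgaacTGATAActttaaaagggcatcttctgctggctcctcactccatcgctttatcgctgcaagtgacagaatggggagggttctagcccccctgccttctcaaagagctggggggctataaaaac
Nppb: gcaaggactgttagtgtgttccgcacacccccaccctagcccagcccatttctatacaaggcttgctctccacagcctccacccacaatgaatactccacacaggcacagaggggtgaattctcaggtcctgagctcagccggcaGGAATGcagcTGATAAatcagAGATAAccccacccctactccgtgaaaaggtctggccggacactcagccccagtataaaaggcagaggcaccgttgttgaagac
Acta1: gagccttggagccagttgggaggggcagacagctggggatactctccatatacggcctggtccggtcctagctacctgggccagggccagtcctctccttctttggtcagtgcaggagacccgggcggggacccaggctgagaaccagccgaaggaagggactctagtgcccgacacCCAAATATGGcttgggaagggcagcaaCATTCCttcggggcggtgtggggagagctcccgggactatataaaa
Ankrd1: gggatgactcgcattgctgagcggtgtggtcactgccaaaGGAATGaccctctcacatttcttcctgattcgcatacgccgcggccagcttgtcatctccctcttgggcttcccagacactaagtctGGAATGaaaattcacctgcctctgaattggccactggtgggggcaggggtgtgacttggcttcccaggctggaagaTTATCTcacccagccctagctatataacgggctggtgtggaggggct
Xirp2: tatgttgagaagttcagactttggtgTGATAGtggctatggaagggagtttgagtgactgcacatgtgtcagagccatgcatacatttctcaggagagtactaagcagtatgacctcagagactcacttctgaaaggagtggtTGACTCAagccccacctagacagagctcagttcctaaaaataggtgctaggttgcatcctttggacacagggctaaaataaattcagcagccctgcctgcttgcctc

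In Nppa, 1 GATA match lay 122 to 117 bases before the start. Nppb held 2, at 95 to 90 and 84 to 79 bases, close to an MCAT match at 105 to 100. Acta1 had a CArG box at 73 to 64 bases and an MCAT match at 46 to 41, and Ankrd1 a GATA match at 47 to 42 with MCAT matches at 210 to 205 and 123 to 118. Xirp2 held a GATA match at 224 to 219 and an AP-1 match at 107 to 101. No 2 of these matches overlapped. Among 32851 RefSeq promoter windows of the same length, 26.5% held a GATA match, 12.6% MCAT, 1.47% a CArG box and 4.46% AP-1. Over the 5305 windows of measured genes the shares were 16%, 11.3%, 1.43% and 3.09%. The table held 123 windows for 97 of the 128 higher genes, of which 13% held GATA, 17.9% MCAT, 2.44% CArG and 5.69% AP-1. Of 42 windows for 34 of the 51 lower genes, the shares were 23.8%, 16.7%, 2.38% and 2.38%. These are counts of letters, and whether a factor binds there was not measured.

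Nppa, the atrial natriuretic peptide, is released by stretched heart muscle and promotes salt loss and vessel relaxation. It stood at 12.39 in banding and 8.28 in sham, and at 7.70 and 7.49 in the adult libraries. Banding was far above the other 3 libraries, and with a difference of 4.11 Nppa was the largest change of all. The ratio of FPKM was 17.4, with an exact 95% counting interval of 16.8 to 18. Such intervals cover the counting of reads alone, not variation between hearts. Nppb, the related peptide of the ventricle, was at 7.27 in banding against 4.31 in sham, an 8.14-fold ratio (6.97 to 9.55). In the adult libraries it stood at 7.22 and 6.0, so the yardstick pair itself differed by 1.22 and, as deposited, adult 1 nearly reached the banded level. Corin, the heart protease that cleaves the Nppa precursor, went the other way, at 1.88 in banding and 2.96 in sham (4.33 and 4.24 in adult).

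Among 19 measured genes of the 48 listed for secreted signals and their receptors, 6 were at least 2-fold higher and 3 lower, with a median of -0.06. Il11ra1, a receptor for interleukin 11, stood at 6.17 against 3.63 (4.76 and 5.10 in adult). Its near-identical neighbour Il11ra2 makes this value uncertain. Inhba, the activin A subunit, stood at 3.11 against 1.48 (1.98 and 1.49), and Hbegf, a growth factor of the EGF family, at 4.76 against 3.49 (3.87 and 3.64). Both were above sham and the adult libraries. Tnfrsf12a, the receptor for the cytokine TWEAK, stood at 4.01 against 2.45 but at 5.02 and 3.81 in adult, where the libraries also passed 2-fold. The lower genes were Corin, Penk, the enkephalin precursor, at 1.5 against 3.33 (1.16 and 1.53), and Retnla, a secreted product of alternatively activated macrophages, at 0.88 against 3.36 (0.61 and 1.32). For Penk and Retnla the banded heart lay near the adult libraries and the sham heart alone was high. Retnla rests on 7 reads in banding and 67 in sham.

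**Figure D2:**
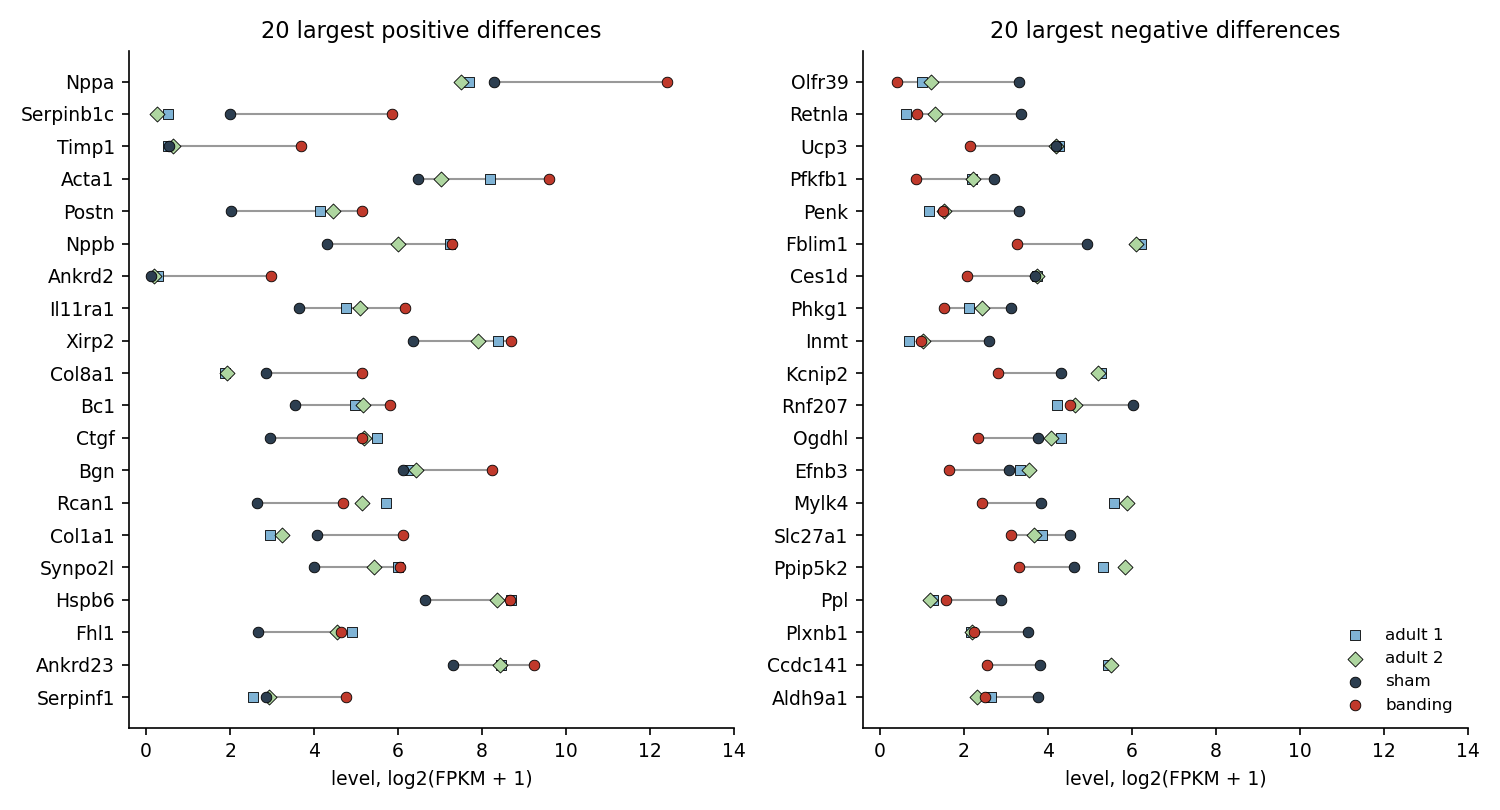
Level in log2(FPKM + 1) of the 20 genes with the largest positive (left) and negative (right) difference, leaving out predicted genes and numbered small RNAs; circles are banding and sham joined by a line, squares and diamonds the adult libraries, all on the deposited scale. Nppa lies at 12.39 in banding and between 7.49 and 8.28 in the other libraries, while Penk lies at 3.33 in sham and between 1.16 and 1.53 elsewhere.

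The contractile proteins showed no common direction, with differences from -0.88 to 3.11. For 22 of the 26 measured genes the difference was larger than that between the adult libraries. Of 26 measured sarcomere genes (31 listed), 2 were at least 2-fold higher and none lower, with a median of 0.01 that turned negative under each other scaling. Acta1, the skeletal muscle actin that the loaded heart is known to express again, stood at 9.59 in banding and 6.48 in sham, an 8.71-fold ratio (8.26 to 9.19). As deposited the adult libraries lay between, at 8.19 and 7.02, and differed from each other by 1.17. Mybpc2, the fast skeletal form of myosin-binding protein C, stood at 4.40 against 2.62 (3.59 and 3.46). The myosin heavy chains did not pass 2-fold. Myh6, the fast chain of the adult mouse ventricle, stood at 12.22 against 12.78 (13.27 and 13.21), and Myh7, the slow chain known from pressure overload, at 7.97 against 7.81 (8.46 and 8.40). The difference of Myh6, -0.56, was larger than its difference of 0.06 in the adult pair. That of Myh7, 0.15, also exceeded its adult difference of 0.05 but came to 0.00 without the 50 most abundant genes in the scaling. Tnni3, cardiac troponin I, stood at 11.92 against 12.15 (12.16 and 12.22).

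The list of Z-disc and stretch-sensing proteins held 10 higher calls among 41 measured genes, against 2 among 26 in the sarcomere list. Over all members 2.51% were higher calls. Of 41 measured genes (49 listed), 29 were higher and 12 lower, 10 of them at least 2-fold higher and 1 lower, with a median of 0.40 against 0.06 over all members and 0.10 for the list between the adult libraries. All 3 members of the muscle ankyrin repeat family, which link titin to the nucleus, were among the higher. Ankrd1 stood at 12.75 in banding and 10.88 in sham (10.08 and 9.45 in adult), a 3.67-fold ratio (3.63 to 3.71), and ranked among the 10 most abundant transcripts. Ankrd23 stood at 9.23 against 7.31 (8.45 and 8.42). Ankrd2, the form of slow skeletal muscle, stood at 2.97 with 105 reads in banding and at 0.10 with 1 read in sham (0.28 and 0.20 in adult), a ratio of 90.5 with a counting interval of 15.9 to 3610. Banding alone held more than a trace of Ankrd2.

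Xirp2, an actin-binding repeat protein of the intercalated disc and Z-disc, stood at 8.69 against 6.35 (8.37 and 7.91 in adult), a 5.13-fold ratio (5.03 to 5.23). Synpo2l, an actin-bundling Z-disc protein, stood at 6.04 against 4.01 (6.01 and 5.43) and Fhl1, a LIM protein that binds titin, at 4.64 against 2.67 (4.90 and 4.56). In these genes sham was the lowest of the 4 libraries. Desmin (Des), the intermediate filament that ties Z-discs together, stood at 10.56 against 9.21 (9.66 and 9.70). Its chaperone Cryab stood at 9.21 against 7.89 (9.96 and 9.78), and the filamin Flnc at 4.79 against 3.59 (4.97 and 4.47). The exception was Fblim1, an adaptor at cell-matrix contacts, at 3.26 against 4.94 (6.23 and 6.11), a 3.44-fold lower value in banding (3.06 to 3.88). Banding was the lowest of the 4 libraries there.

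RefSeq gave 42 windows for 31 of the 41 measured Z-disc genes. Of these, 31.0% held a GATA match, 19% MCAT, 16.7% a CArG box and 16.7% AP-1. Over the windows of all measured genes, given above, the shares were 16%, 11.3%, 1.43% and 3.09%. The shares describe the whole list, whether a gene was called or not. Of the 11 list genes with GATA, Ankrd1, Ankrd23, Pdlim5, Synpo2l and Xirp2 were higher calls. Of the 8 with MCAT, Ankrd1, Ankrd23 and Flnc were higher and Fblim1 lower. Of the 5 with a CArG box only Fhl1 was called. Of the 6 with AP-1, Xirp2 was higher and Fblim1 lower.

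Cytoskeletal genes were higher with few exceptions, mostly by less than 2-fold. Of 44 measured genes of tubulin and non-muscle actin (52 listed), 42 were higher and 2 lower, with a median of 0.46 against -0.11 for the list in the adult pair. Only 3 passed 2-fold. Enah, which extends actin filaments at the intercalated disc, stood at 6.0 against 4.36 (6.43 and 5.99 in adult). The microtubule-associated protein Mtap1a stood at 2.60 against 1.44 (1.15 and 1.15) and the tubulin Tubb4b at 6.34 against 5.30 (6.55 and 6.46). Under the other 3 scalings the difference of Tubb4b, 1.04, was between 0.89 and 0.97. Tubulin genes resemble each other closely, so reads can be assigned to the wrong member, and the value of any single tubulin is uncertain.

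Chaperones that guard muscle filaments were higher. Of 43 measured heat shock genes (54 listed), 34 were higher and 9 lower, 6 at least 2-fold higher and none lower, with a median of 0.29 against 0.01 in the adult pair. Of these 6 genes, 5 belong to the small heat shock family. Hspb6, which binds actin and is phosphorylated under adrenergic drive, stood at 8.66 against 6.65 (8.69 and 8.37 in adult), a 4.04-fold ratio (3.83 to 4.27). Hspb1 stood at 6.66 against 5.01 (6.60 and 6.36), Hspb8 at 6.18 against 5.0 (6.24 and 6.02) and Hspb7 at 9.31 against 8.26 (9.70 and 9.48). Under the other 3 scalings the difference of Hspb7, 1.05, was between 0.90 and 0.99, and without the 50 most abundant genes the list's median was 0.15. Cryab, named above, is the other member. In all 5 the sham level was the lowest of the 4 libraries, on the deposited scale and after rescaling. After rescaling, sham lay below both adult libraries for 35 of all 43 measured genes of the list. Hsp90aa1, the inducible form of HSP90, differed from this pattern at 8.48 against 6.93 (7.63 and 7.35): banding was the highest library.

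The heat shock element was searched as GAANNTTCNNGAA or TTCNNGAANNTTC. It was found in 0.466% of all promoter windows and in 8.33% of the 48 windows of the heat shock list, which belong to Dnajb6, Hspd1 and Hspe1. None of these 3 genes passed 2-fold. Hspd1 and Hspe1, a mitochondrial chaperonin pair that is known to share a start region, stood at 6.25 against 6.27 and at 7.01 against 6.44. None of the 123 windows of the higher genes held the element. Over the 5305 windows of measured genes the share was 0.49%, so few matches or none are expected among 123. Cryab had no window.

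In the endoplasmic reticulum folding list all 22 measured genes (41 listed) were higher, none by 2-fold, with a median of 0.31 against -0.05 in the adult pair. Without the 50 most abundant genes in the scaling 17 were higher and 5 lower, with a median of 0.18. The largest were Ppp1r15a, which restarts translation after stress, at 3.28 against 2.60 (5.0 and 5.14 in adult), and the stress factor Atf4 at 5.81 against 5.14 (5.43 and 5.48). Of 34 antioxidant and metal defence genes (52 listed), 26 were higher and 8 lower. Past 2-fold were the extracellular superoxide dismutase Sod3 at 6.01 against 4.77 (5.20 and 5.12), the metallothionein Mt2 at 5.18 against 3.95 (5.41 and 5.63) and Gsto1, a glutathione transferase, at 5.03 against 3.99 (5.09 and 4.84). The difference of Gsto1, 1.04, was between 0.89 and 0.98 under the other 3 scalings. Txnip, an inhibitor of thioredoxin and of glucose uptake, was lower at 3.81 against 5.0 (6.24 and 6.46).

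Many of the higher genes belonged to the extracellular matrix. Over 5 lists of collagens, their processing enzymes, matrix glycoproteins, proteases with inhibitors, and integrins with laminins, 115 distinct genes were measured. Of these, 98 were higher and 17 lower, 30 at least 2-fold higher (26.1%) and 2 lower, with a median of 0.49 against -0.15 between the adult libraries, where none passed 2-fold. These account for 30 of the 128 higher calls, and over all members 2.51% were higher calls. Since 5 lists were joined, this count cannot be ranked against that of a single list. In bulk tissue, more cells of a type and more RNA per cell cannot be told apart, which holds for every group below. Fibroblast markers moved with the matrix. Of 18 measured markers (25 listed, 3 of the 18 also in the matrix lists), 16 were higher and 2 lower, 4 of them at least 2-fold higher, with a median of 0.35 that was 0.23 without the 50 most abundant genes. All 25 listed markers, with those under the limit, summed to 534 FPKM in banding and 395 in sham, against 238 and 257 in the adult libraries. The widely used markers Pdgfra (2.72 against 2.36) and Ddr2 (3.09 against 2.97) differed by much less than the collagens, and Tcf21 lay under the limit at 1.11 against 0.96. The part of fibroblast content in the matrix result was not tested.

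Fibrillar collagens give scar its strength. The median of the 13 measured collagen chains (27 listed) was 1.17, against -0.28 for the 8 chains measured in the adult pair. Of the 13 chains, 12 were higher, 8 at least 2-fold. The exception was Col5a3, at 2.70 against 2.74. Col1a1, the main chain of type I collagen, stood at 6.11 in banding and 4.08 in sham (2.95 and 3.24 in adult), a 4.28-fold ratio (3.99 to 4.6), and its partner Col1a2 at 5.92 against 4.47 (3.06 and 3.43). Col3a1 stood at 6.04 against 4.73 (3.67 and 3.98). For each of these the order of the libraries was banding, sham, adult, from high to low. Col8a1, a short-chain collagen of vessel walls, had the largest difference, at 5.15 against 2.86 (1.87 and 1.92), a 5.50-fold ratio (4.93 to 6.13). The fibril regulator Col5a2 stood at 3.94 against 2.67, and Col15a1, Col6a2 and Col6a3 at 4.90 against 3.58, 5.47 against 4.30 and 3.12 against 2.07. The difference of Col6a3, 1.05, lay just under 1 in the other 3 scalings. The basement membrane chains Col4a1 (6.01 against 5.51) and Col4a2 (5.89 against 5.42) did not pass 2-fold.

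Enzymes that mature collagen followed. Of 19 measured (36 listed), 18 were higher and 4 passed 2-fold, with a median of 0.39. They were the cross-linking enzyme Loxl2 at 3.78 against 2.30 (2.26 and 2.55 in adult), the propeptidase Adamts2 at 2.96 against 1.72 (1.26 and 1.34), the collagen chaperone Serpinh1 at 6.07 against 4.93 (5.80 and 5.74) and the propeptidase enhancer Pcolce at 5.09 against 4.04 (2.44 and 3.13). Under the other 3 scalings the difference of Pcolce, 1.05, was between 0.91 and 0.99, and without the 50 most abundant genes that of Serpinh1 was 0.996 and the list's median 0.25.

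Of 33 matrix glycoproteins and proteoglycans (67 listed), 28 were higher and 5 lower, and 11 passed 2-fold, all higher, with a median of 0.80 against -0.22 in the adult pair. Periostin (Postn), made by activated fibroblasts, stood at 5.13 in banding and 2.02 in sham, an 11.1-fold ratio (9.20 to 13.5). Its adult levels, 4.13 and 4.45, lay well above sham. Ctgf, a matricellular target of TGF-beta and YAP signalling, stood at 5.15 against 2.94 and, as deposited, at 5.49 and 5.19 in adult. Thus for both genes sham was the lowest of the 4 libraries, unlike for the collagens. The proteoglycan biglycan (Bgn) stood at 8.23 against 6.12 (6.29 and 6.42), a 4.36-fold ratio (4.16 to 4.58). The elastic fibre proteins Mfap5 and Mfap4 stood at 3.99 against 2.14 (1.01 and 1.10) and 4.74 against 2.96 (2.73 and 3.08). Lumican (Lum), a collagen-binding proteoglycan, stood at 3.33 against 1.81 (2.84 and 3.02). The calcification inhibitor Mgp stood at 8.13 against 6.86 (5.67 and 5.43) and decorin (Dcn), which binds TGF-beta, at 8.98 against 7.72 (6.05 and 6.35).

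**Figure D3:**
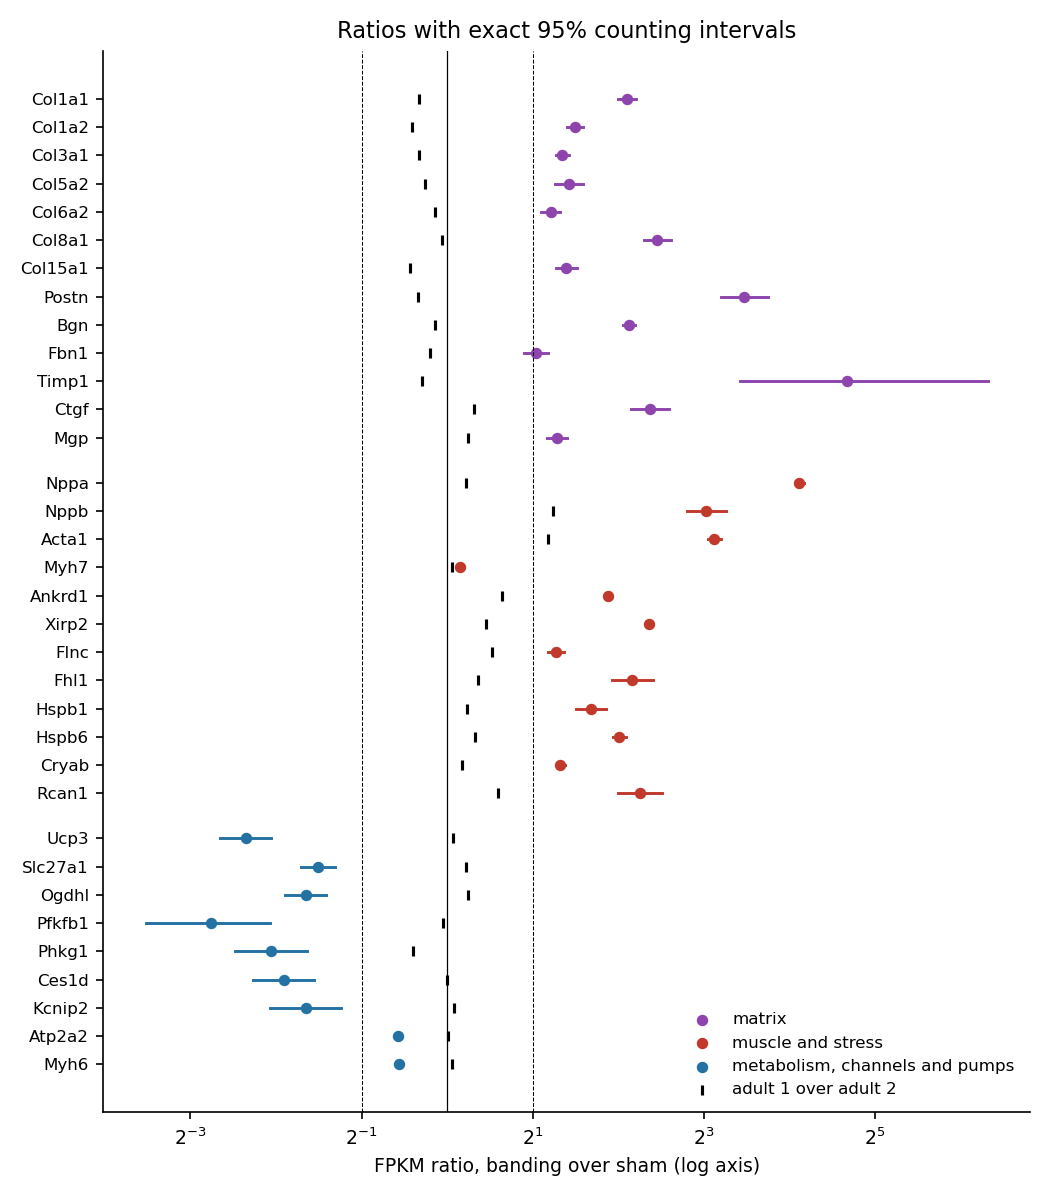
Ratio of FPKM, banding over sham, on a log axis with exact 95% counting intervals, for genes of matrix, of muscle and stress, and of metabolism, channels and pumps; black ticks give the ratio adult 1 over adult 2 of the same gene, and dashed lines mark 2-fold. Timp1 at 25.5 has the widest interval (10.7 to 79.8), and the ticks of Nppb and Acta1 lie past 2-fold. The genes were chosen from those described in the text.

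Protease inhibitors held some of the largest ratios of all. Of 33 measured genes of matrix proteases and their inhibitors (56 listed), 27 were higher and 6 lower, 6 at least 2-fold higher and 2 lower. Timp1, the inducible inhibitor of metalloproteinases, stood at 3.69 with 148 reads in banding and 0.55 with 5 reads in sham (0.53 and 0.63 in adult), a ratio of 25.5 with a counting interval of 10.7 to 79.8. Timp4, the form abundant in normal heart, went the other way, at 3.14 against 4.35 (4.23 and 4.43), a 2.48-fold lower value (2.05 to 3.03). Banding was the highest library for Timp1 and the lowest for Timp4. As deposited the other 3 libraries lay together in both genes, but after rescaling Timp4 in sham, at 4.75, lay further from the adult libraries (3.88 and 4.04) than banding did at 3.46.

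Serpinb1c, of the family of leukocyte elastase inhibitors, stood at 5.87 against 2.00 (0.53 and 0.27), a 19.1-fold ratio (14.7 to 25.3), though close copies in its gene family make the value uncertain. Serpina3n, an acute phase protease inhibitor, stood at 2.67 against 0.78 (0.82 and 0.76). Serpinf1, which inhibits vessel growth, stood at 4.75 against 2.85 (2.56 and 2.92), Serpine2, a thrombin inhibitor, at 4.24 against 2.74 (1.61 and 2.09), and Mmp23 at 3.04 against 1.85 (1.00 and 1.24). In each of these the banded heart was the highest library. Adamts7, a secreted protease, was lower at 2.10 against 3.30 (2.48 and 2.43). Of 17 integrin and laminin genes only Itgbl1, an integrin beta-like protein, passed 2-fold, at 4.37 against 3.0 (1.62 and 1.46).

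TGF-beta is the main signal known to turn on collagen genes. Of 15 measured genes of its pathway (49 listed), 3 were at least 2-fold higher and none lower; the list's median, 0.09, turned negative without the 50 most abundant genes in the scaling. Tgfb2, a ligand, stood at 3.04 against 1.89 (2.44 and 2.22 in adult). Pmepa1, a feedback inhibitor that TGF-beta induces, stood at 4.05 against 2.65 (2.83 and 2.73), and the follistatin-like Fstl1 at 5.95 against 4.31 (4.02 and 4.28). All 3 were highest in banding. Of 6 measured Wnt pathway genes only Sfrp1, a secreted Wnt inhibitor, passed, at 3.24 against 1.92 (1.04 and 1.04).

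Among signals inside the muscle cell, Rcan1 stood out. It is a target and inhibitor of calcineurin, the phosphatase that drives hypertrophy through NFAT, and stood at 4.69 against 2.64, a 4.76-fold ratio (3.99 to 5.71). The adult libraries were higher still as deposited, at 5.71 and 5.13. It was the only 1 of 33 measured genes of hypertrophic kinase and phosphatase signalling (69 listed) past 2-fold, and the list's median, 0.13, turned negative without the 50 most abundant genes in the scaling. Of 25 cardiac transcription factors (73 listed) 14 were higher and 11 lower, with a median that turned negative in the same way. The only call was Hopx, a homeodomain protein that binds no DNA itself, at 2.53 against 3.61 (5.74 and 5.66 in adult), 2.33-fold lower (1.79 to 3.06). No immediate early gene passed 2-fold among 12 measured, and the largest differences were Zfp36l1 at 3.82 against 3.21 and Klf10 at 2.02 against 2.65. Ccnd2, the D-type cyclin known for heart muscle growth, stood at 4.30 against 3.19 (4.25 and 4.12) and was the only 1 of 7 measured cell cycle genes past 2-fold, with a difference of 0.97 without the 50 most abundant genes. Only 7 of 52 listed cell cycle genes reached the limit at all.

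Protein turnover lists held few calls. Of 30 genes of ribosome biogenesis and translation, 25 were higher, none by 2-fold, with a median of 0.20. Without the 50 most abundant genes in the scaling 18 were higher and 12 lower, with a median of 0.06. The largest difference was the nucleolar methyltransferase Fbl at 4.56 against 4.01. Of 39 genes of ubiquitin ligases, proteasome and autophagy, the only call was Kbtbd5, a muscle ubiquitin ligase adaptor also known as Klhl40, at 3.42 against 1.92 (2.12 and 2.39 in adult).

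Genes of fuel use showed many small differences and few calls. Of 35 measured genes of fatty acid uptake and oxidation (54 listed), 7 were higher and 28 lower, 2 of them at least 2-fold, with a median of -0.32 against 0.02 between the adult libraries. Ucp3, a mitochondrial carrier induced by fatty acids, stood at 2.14 in banding and 4.2 in sham, and at 4.27 and 4.21 in adult. Banding was 5.11-fold lower than sham (4.18 to 6.31) and the lowest library. As deposited sham and adult lay together, whereas after rescaling sham, at 4.6, lay above the adult libraries at 3.92 and 3.82. Slc27a1, a fatty acid transporter, stood at 3.14 against 4.53 (3.87 and 3.67), 2.84-fold lower (2.48 to 3.26).

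Of 21 lipid storage genes, 4 were higher and 17 lower (median -0.22). The lipase Ces1d passed 2-fold, at 2.07 against 3.69 (3.75 and 3.74), with close copies of the gene leaving its value uncertain. Of 27 genes of branched-chain amino acid and ketone use, 9 were higher and 18 lower (median -0.19), and Prodh, which starts proline breakdown, was the only call, at 3.17 against 4.22 (3.40 and 3.71). In the citric acid cycle 8 of 22 were higher and 14 lower (median -0.10). The only call there was Ogdhl, a relative of the 2-oxoglutarate dehydrogenase subunit, at 2.33 against 3.77 (4.32 and 4.09). Each of these 3 genes was lowest in banding as deposited, and Ces1d and Ogdhl also after rescaling.

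Glucose genes did not move as a group. Of 33 measured (59 listed), 20 were higher and 13 lower, with 1 call each way and a median of 0.11 that turned negative without the 50 most abundant genes in the scaling. Pfkp, the platelet form of phosphofructokinase, stood at 3.91 against 2.76 (4.32 and 4.25 in adult). Pfkfb1, which makes and breaks the activator of that enzyme, stood at 0.87 with 20 reads against 2.73 with 117 reads (2.18 and 2.22). The 3 calls among 9 measured glycogen genes went both ways. Ugp2 and Gyg, which make the sugar donor and the primer of glycogen, were higher at 3.63 against 2.27 and 2.95 against 1.73, still under their adult levels of 6.02 and 5.63, and 4.71 and 4.51. Phkg1, the catalytic subunit of phosphorylase kinase in muscle, which starts glycogen breakdown, was lower at 1.52 against 3.13 (2.11 and 2.43).

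The respiratory chain showed no call. In complex I, 25 of 36 measured genes were higher and none passed 2-fold (median 0.06). In complexes III, IV and V, 26 of 41 were higher and none passed (median 0.04). Both medians turned negative under each other scaling and lay close to 0.06, the median of all members. The 2 largest differences in complex I were Ndufb3 at 6.75 against 6.41 and Ndufc1 at 8.05 against 7.77, and in the other complexes Cox8a at 5.14 against 4.54 and Atp5o at 8.60 against 9.08. No member of the creatine kinase and myoglobin list passed either, among 17 measured.

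**Figure D4:**
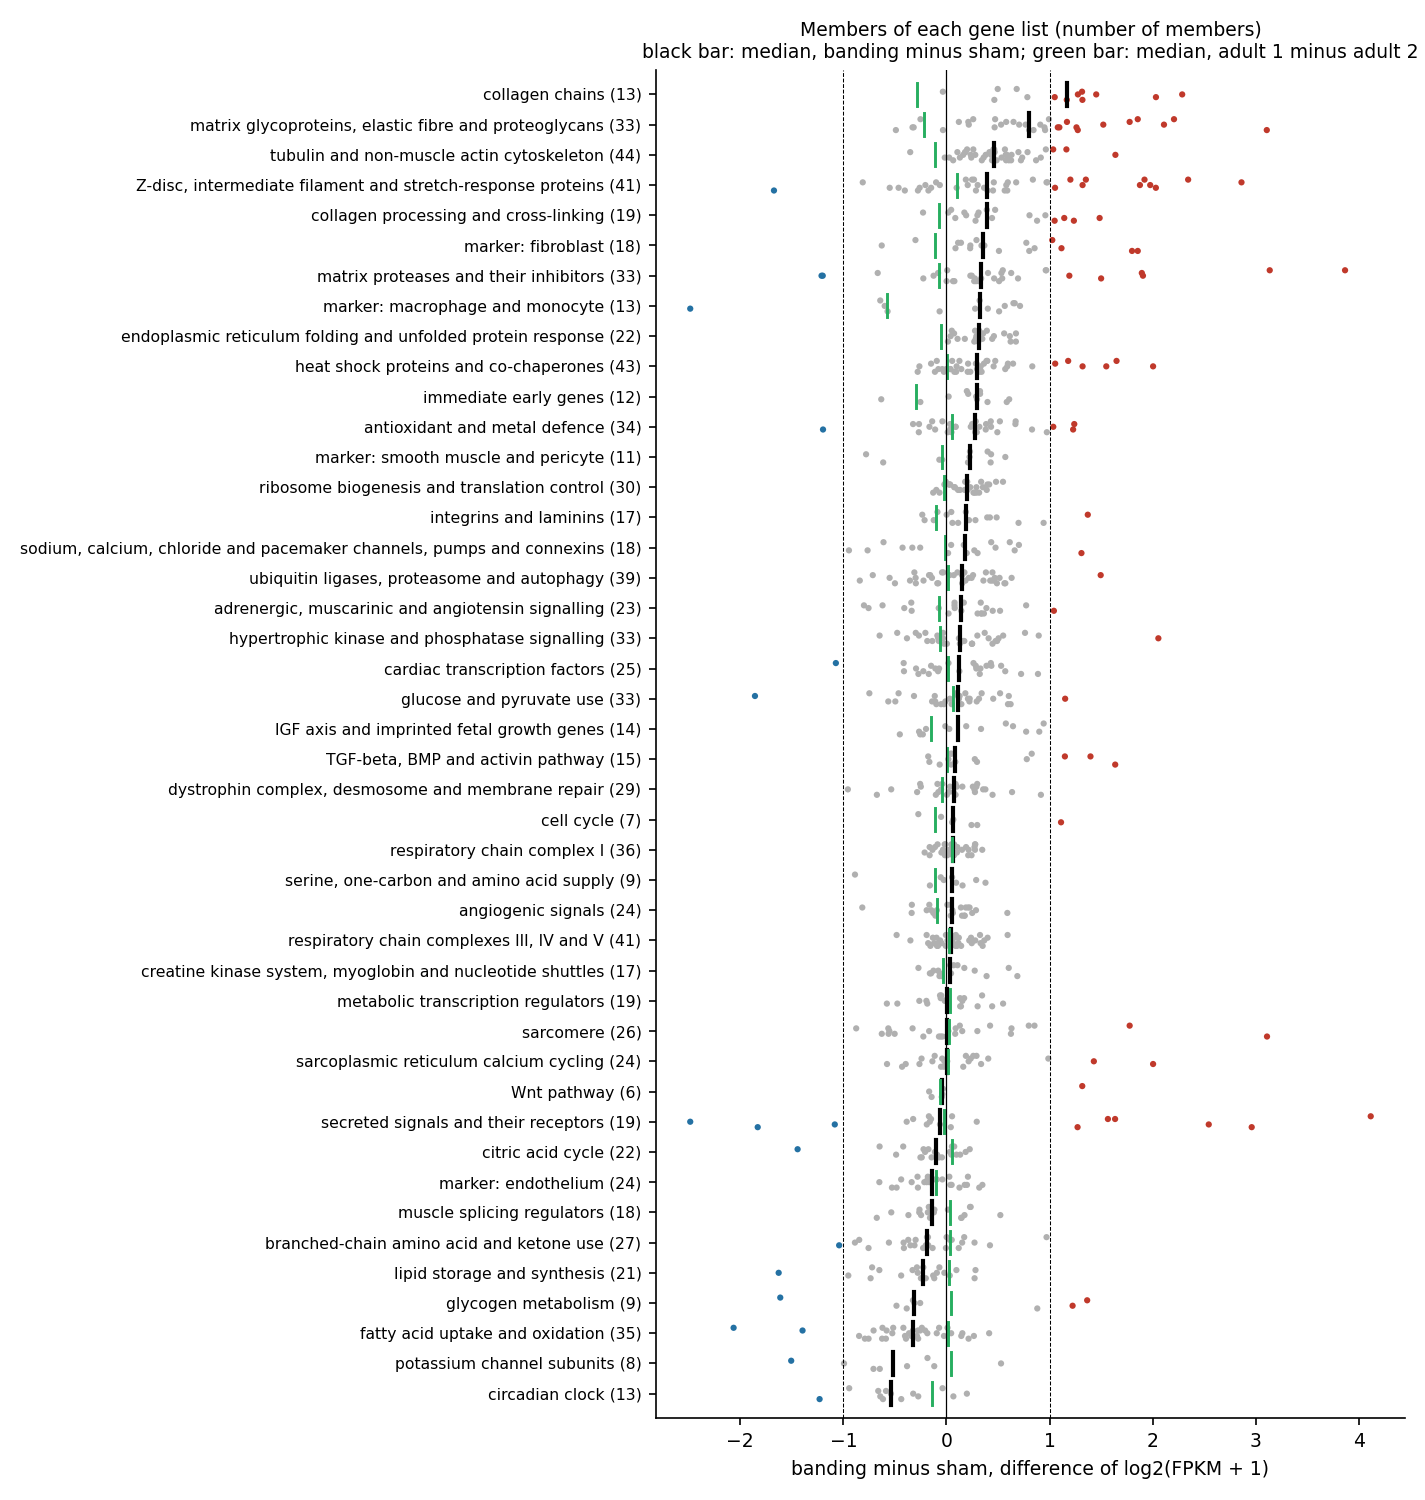
Difference of log2(FPKM + 1), banding minus sham, for every measured member of the 44 lists with at least 5 members; grey points lie under 2-fold and coloured points past it. Black bars give the list's median. Green bars give the median between the adult libraries, over the list's genes with at least 5 FPKM in either of them. Of the black bars, collagen chains have the highest median (1.17) and the circadian clock the lowest (-0.54).

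Subunits of potassium channels, whose currents end each beat, were mostly lower. Of 8 measured potassium channel subunits (39 listed), 7 were lower and 1 higher, with a median of -0.51 against 0.05 in the adult pair. Kcnip2, an accessory subunit of the channels that carry the fast transient outward current, stood at 2.82 in banding and 4.32 in sham (5.27 and 5.20 in adult), 3.14-fold lower (2.37 to 4.2). It was the only call of the list, and banding was the lowest library. Among 18 sodium, calcium and chloride channels, pumps and connexins, the median was 0.18 and the only call was Fxyd5, a regulator of the sodium pump, at 5.11 against 3.80 (3.57 and 3.45).

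Calcium cycling genes showed no common direction. Of 24 measured (39 listed), 13 were higher and 11 lower, with a median of 0.00 that was negative under each other scaling. Casq1, the skeletal muscle calsequestrin that stores calcium, stood at 5.32 against 3.89 (4.73 and 4.57 in adult), and Hspb6, also on this list as a regulator of phospholamban, was named above. Atp2a2, the calcium pump SERCA2 whose level is known to decline in heart failure, stood at 8.26 against 8.84 (10.86 and 10.84), a difference of -0.58 that did not reach 2-fold but exceeded the adult difference of 0.02. Of 23 genes of adrenergic, muscarinic and angiotensin signalling only Gnao1, the G protein subunit alpha o, passed 2-fold, at 3.43 against 2.39 (2.69 and 2.08), and its difference of 1.04 was between 0.91 and 0.99 under the other 3 scalings.

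The circadian clock had the lowest median of the 44 lists with at least 5 measured members. Of 13 measured genes (24 listed), 2 were higher and 11 lower, with a median of -0.54 against -0.14 in the adult pair. The call was Gm129, now called Ciart, a repressor of the clock, at 1.97 against 3.20 (2.79 and 2.93 in adult), 2.81-fold lower (2.05 to 3.89). The time of day at which hearts were taken is not in the labels, and its part in the result was not tested.

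Markers of other cell types showed how the tissues compared. Of 24 measured endothelial markers, 9 were higher and 15 lower, none by 2-fold (median -0.14). All 30 listed, with those under the limit, summed to 2350 FPKM in banding and 2790 in sham (1630 and 1810 in adult). Of 11 measured smooth muscle and pericyte markers, 7 were higher and 4 lower, none by 2-fold (median 0.22). All 18 listed summed to 369 FPKM in banding and 359 in sham (850 and 871 in adult). The list includes Casq2, which heart muscle also expresses. Of 13 measured macrophage markers, 8 were higher and 5 lower (median 0.32), and Retnla was the only call. Without the 50 most abundant genes in the scaling the median was 0.20. Between the adult libraries 6 markers were measured, with a median of -0.57. All 37 listed summed to 159 FPKM in banding and 148 in sham (90.2 and 131 in adult). No lymphocyte, granulocyte or mast cell marker reached the limit, and Camp, Gzmb and Nkg7 were at 0 in both libraries. Of 18 markers listed for atrial muscle and the conduction system, 3 reached the limit, 2 higher and 1 lower and none by 2-fold, and the list summed to 74.3 FPKM in banding and 58.5 in sham (358 and 269 in adult). Among the defining atrial genes, Mybphl and Sln were at 0 in both, and Myl7 stood at 0.79 with 6 reads in banding and 0.64 with 4 reads in sham (4.65 and 3.27 in adult). Myl4, the atrial light chain, stood at 1.94 with 35 reads and 1.61 with 22 reads (6.72 and 6.09). Dkk3, which is on the fibroblast list too, stood at 1.29 with 68 reads and 0.17 with 5 reads (2.14 and 1.93). The part of atrial tissue in the Nppa difference was not tested. Adipose markers summed to 59.3 FPKM in banding and 83.3 in sham, with Elovl3, Lep and Ucp1 at 0 in both. The Y-linked genes Ddx3y (4.54 and 4.32) and Eif2s3y (5.4 and 5.71) were detected in both libraries, with Xist at 1.36 and 1.55 (3.38 and 3.12 in adult), so the pools were alike in this measure.

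A difference between banding and sham can lie with either library, and the adult pair shows where each stood. For this the 4 libraries were rescaled by the median of ratios over genes, with factors of 0.7797 for banding, 0.7477 for sham and 1.2934 and 1.3340 for the adult libraries. Over all members the median distance from the adult mean was then 0.32 in banding and 0.29 in sham. The calls were made on the same banding and sham values, so positions apart from those of all members are expected from that choice. Of the 128 higher genes, banding lay above both adult libraries for 118 (92.2%, against 60.2% of all members). Sham lay below both for 44 (34.4%, against 35.2% of all members) and above both for 73 (57.0%, against 59.7%), so the sham positions of these genes were close to those of all members. Of the 51 lower genes, banding lay below both adult libraries for 29 (56.9%, against 34.5% of all members) and sham above both for 38 (74.5%, against 59.7%). The operation and the library make-up both differ between these groups and the adult pair and cannot be told apart, and the labels do not say whether age differs too.

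The positions differed between the gene groups. All 13 measured collagen chains lay above both adult libraries in banding and in sham alike, with median distances of 2.30 in banding and 1.45 in sham. So did all 18 measured fibroblast markers (1.70 and 1.39). Genes were measured here through banding or sham, so a listed gene high in adult alone was left out, which favours such positions. In the adult libraries 8 listed collagen chains and 9 listed fibroblast markers reached 5 FPKM. In the protease and inhibitor list, sham lay above both adult libraries for 22 of 33 measured genes and for all 6 higher calls. The Z-disc list had a median distance of 0.09 in banding and -0.64 in sham. Of its 41 measured genes, sham lay below both adult libraries for 30 and banding for 19. Of its 10 higher calls, sham lay below both for 8. Of the 43 measured heat shock genes, sham lay below both for 35 and banding for 26. Of the 6 heat shock calls, sham lay below both for 5. The sham positions of the Z-disc and heat shock calls were thus close to those of their whole lists. For the fatty acid list the distance was -1.32 in banding and -1.01 in sham, so that both libraries lay under adult and banding the further. For the circadian list it was 0.13 and 0.70, with sham above both adult libraries for 12 of 13 genes. As deposited, without rescaling, banding lay above both adult libraries for 102 of the 128 higher genes (79.7%, against 31.8% of all members) and sham below both for 70 (54.7%, against 64.6%), so these counts depend on scale.

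**Figure D5:**
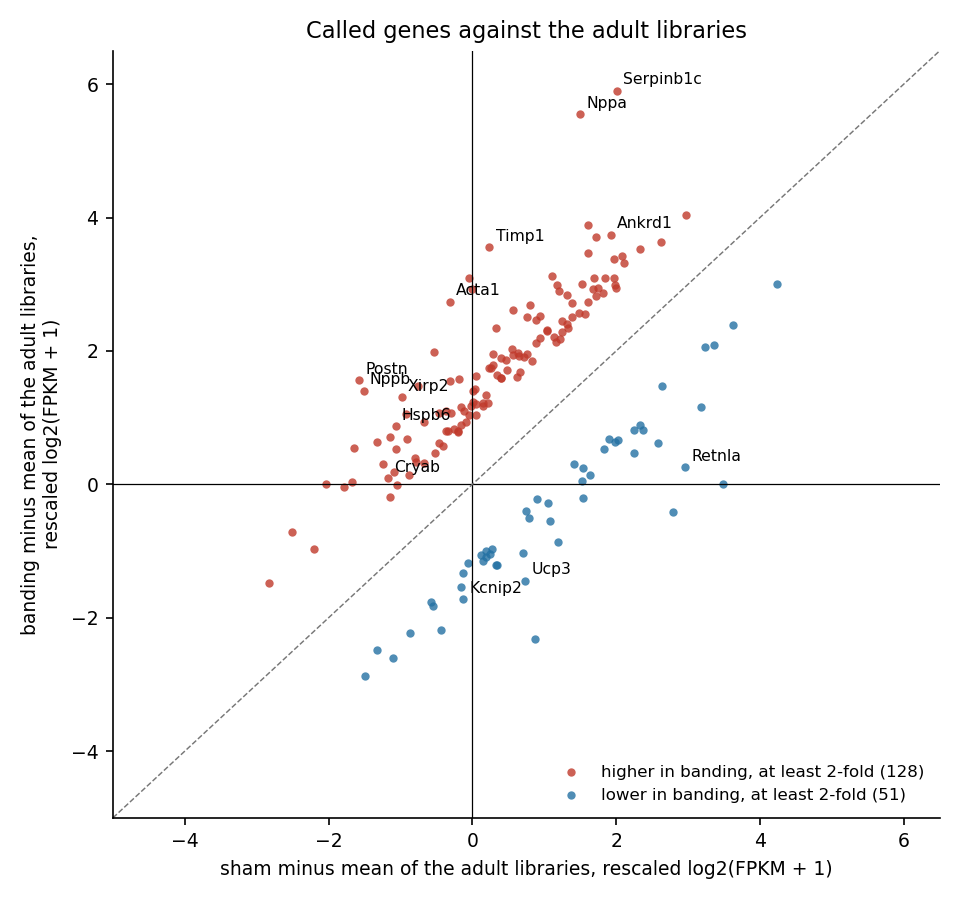
Each point is 1 of the 179 genes past 2-fold; the horizontal axis is sham and the vertical axis banding, each minus the mean of the adult libraries, in log2(FPKM + 1) after rescaling the 4 libraries. Points on the dashed diagonal would not differ between banding and sham. Of the 128 higher genes 118 lie above both adult libraries in banding, and genes such as Postn, Xirp2 and Cryab lie left of 0, with sham below adult.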

How the data were processed

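Poly(A) RNA of banded, sham and adult mouse hearts was sequenced by the study. Each library was made from 2 µg of RNA, pooled before selection, with random hexamer primers, per the labels' protocols. Per the submitters' processing notes, the series used the build mm9 and the tools TopHat 1.4, BWA 0.5.9, HTSeq 0.5.3, MACS 1.4 and CASAVA 1.8.2. Their roles for the expression values, and any use of strand, are not given in the sources used here. Thus overlapping and antisense genes cannot be separated. The authors deposited 1 value per gene, on a log2 scale read from the values as log2(FPKM + 1).

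Values were used as deposited (pseudocount 1). Whole reads were recovered from the step sizes, for 98043 of 98043 values within 0.001 of a read. They gave total reads per library and exact 95% intervals of FPKM ratios (conditional binomial, scipy 1.17.1, Python 3.11.15), which cover counting error only, since reads carry no molecular identifiers. Members had at least 5 FPKM in either library, and a call was a difference of at least 1. The rule was run on simulated reads that held counting error and no variation between hearts or libraries, so that run cannot gauge such variation. With 1 library a side no test was made. The 31 calls of the adult pair serve as background.

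Members and the 53 gene lists (1974 entries, 1968 matched, 19 of them by a RefSeq synonym) were chosen with earlier results of these data known. Named genes are the 20 largest differences each way without predicted genes and numbered small RNAs, up to 8 calls of each list or its 2 largest differences, 10 sentinel genes, the calls shared with the adult pair and the 10 most abundant genes; other named genes were chosen after their values were seen. Alternatives were the pseudocount, the filter, 3 scalings and 2 call rules. The other 39 samples and the E12.5 libraries were not analysed here.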

Additional observations from a re-analysis of the deposited data

How the results depend on the processing

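No paired analysis was possible because banding and sham carry no replicate numbers and no result comes from a test. Leaving out a replicate was not possible with 1 library a side. Against the reported 128 higher, 51 lower and 31 adult calls, a filter of 1 FPKM and no filter each gave 200, 107 and 85. A filter of 10 FPKM gave 92, 28 and 12. Scaling without the 50 most abundant genes gave 95 and 82. Requiring 2-fold at the counting bound gave 92, 36 and 13. Counting differences outside the central 99% of the adult pair at the same level gave 348 and 106, or 8.89% of members. The calls past 2-fold under the other pseudocount and all 3 scalings included 95 of the 128 higher and all 51 lower genes. The alternatives gave 432 values for 108 genes, which were the leading genes, the list calls and the sentinels. None changed sign, 361 moved by less than their counting interval and 48 lay under 2-fold. The 48 include every value of Myh6, Myh7, Atp2a2 and Tnni3, which were under 2-fold in the reported result too. The median changed sign under at least 1 scaling for 15 of 44 lists, all with reported medians between 0.00 and 0.13. Depth limits the low genes most, as the intervals show.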

Other observations

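Of the 179 genes past 2-fold, 86 belonged to no list, 52 of them higher and 34 lower in banding. The genes named here were chosen after their values were seen. Abra, an actin-binding activator of serum response factor signalling, stood at 4.21 in banding and 2.40 in sham (5.76 and 5.53 in adult). Prg4, the joint lubricant lubricin, stood at 4.21 against 2.35 (4.13 and 4.29), so that sham was the lowest library in both genes. Ccdc80, a matrix protein, stood at 6.49 against 5.19 (3.94 and 4.31) and the lipocalin Apod at 4.12 against 2.59 (1.79 and 2.02), which put sham above the adult libraries. The interferon-inducible genes Mndal and Ifi203 stood at 4.26 against 2.50 and 4.39 against 2.89; they belong to a family of close copies, and their values are uncertain.

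On the lower side, Mir208b, a microRNA gene inside an intron of Myh7, stood at 5.32 with 42 reads in banding and 7.26 with 142 reads in sham (4.79 and 4.98 in adult), while Myh7 stood at 7.97 against 7.81. Reads of a poly(A) library at this locus are not the mature microRNA. Rnf207, a ring finger protein tied to potassium channel trafficking, stood at 4.54 against 6.03 (4.22 and 4.65), with the highest level in sham. Car4, a membrane carbonic anhydrase, stood at 4.42 against 5.53 and Rbp7, a retinoid-binding protein of endothelium, at 5.33 against 6.39. Olfr39, an olfactory receptor gene, was the lowest of all named genes, at 0.41 with 5 reads against 3.32 with 119 reads (1.01 and 1.22 in adult).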
